A study of Mus musculus with 3 samples.

Results

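The 10 genes described here are Egr1, Fos, Fosb, Jun, Junb, Jund, Ier2, Atf3, Dusp1 and Myc, known as immediate early genes and chosen by symbol from the 35275 genes of the deposited table. Each symbol was found once. The label "transcription factors" holds for most of them, but Dusp1 encodes a protein phosphatase and Ier2 a small nuclear protein. Liver RNA of male C57BL/6J mice, aged 10 weeks at the start of the diets, was sequenced as 1 library per group. The control library came from untreated mice on normal chow. The NASH (nonalcoholic steatohepatitis) library stands for mice without hormone that were fed a western diet plus liquid fructose, and its label names 24 weeks. For the TH-treated NASH library the same diet was given for 16 weeks, and then the thyroid hormones T3 (35 ng/g) and T4 (7 ng/g) were added for 8 weeks to drinking water that held 15% fructose. The labels do not give the number of mice behind each library, the full time the control mice spent on chow, or the time of day of collection. With 1 library per group there is no spread between samples, so no difference below has a test.

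Immediate early genes are transcribed within minutes of a stimulus from proteins that are already in the cell. Growth factors, cytokines and stress act through MAP kinases and cAMP on factors such as SRF with its ELK partners and CREB, which bind the promoters of these genes, and their mRNAs are short-lived. JUN proteins pair with each other or with FOS proteins to form AP-1, EGR1 is a zinc finger factor, and MYC pairs with MAX. In liver these genes are best known from the response to partial hepatectomy and to tissue injury, and they also respond to the handling of tissue.

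The libraries held 54576236, 47009255 and 38303410 fragments on genes in control, NASH and TH-treated NASH. Levels are given as FPKM, in which fragments are scaled to gene length and to the library total. A gene of 2 kb with no fragment could stand at up to 0.0275, 0.0319 and 0.0392 FPKM in these libraries, from a floor of 3 counts. Folds were formed by dividing FPKM values, and brackets give their 95% interval (exact conditional binomial), which covers counting error only. A difference of at least 1.5-fold in log2(FPKM + 1) is called higher or lower, and this scale understates the fold of low genes. The 7 hepatocyte markers were all detected in each library, with a summed level of 42005, 26891 and 20961 FPKM in control, NASH and TH-treated NASH. None of the 7 was called higher and 3 lower in NASH than in control. In TH-treated NASH against NASH 2 were called higher (Trf and Fgb) and 2 lower (Ttr and Apob), with a median log2 ratio of 0.25 although the sum was lower. In bulk tissue, fewer cells of a type and less RNA per cell cannot be told apart.

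RefSeq windows from 250 bases before to 50 bases after the start of the gene (build GRCm38.p6) were searched in 7 of the 10 members. Egr1, Ier2 and Myc had no window in this search, so the motif counts below, the CArG box included, do not cover them. The cyclic AMP response element (CRE) is the site of CREB and ATF proteins, and its core TGACG, on either strand, stood in the windows of 5 members, Fos, Fosb, Junb, Atf3 and Dusp1. Of all 32851 windows in that table, 20.8% held the core. The full palindrome TGACGTCA, which contains the core, stood in the Dusp1 window only, against 1.79% of all windows. No window of the 7 held the AP-1 site TGANTCA (7.81% of all windows) or the CArG box bound by SRF (1.63%), which says only that those letters are not in this stretch. The site GCGNGGGCG that EGR proteins bind was in the Fosb window, against 5.55% of all windows. Below are 4 of the windows that hold the CRE core, 5′ to 3′ on the strand of the gene, with each core or palindrome in capitals. The 4 were chosen for their differing values: in TH-treated NASH against NASH, Fos and Dusp1 were called higher and Junb fell just short of a call, whereas Atf3 was called higher in NASH than in control. Fosb, whose window also holds the core, was called in neither comparison. At 0.0586 to 0.146 FPKM it could hardly be called on the log2(FPKM + 1) scale, so it is no contrast to the others.
Fos, chr12:85473640-85473939, plus strand: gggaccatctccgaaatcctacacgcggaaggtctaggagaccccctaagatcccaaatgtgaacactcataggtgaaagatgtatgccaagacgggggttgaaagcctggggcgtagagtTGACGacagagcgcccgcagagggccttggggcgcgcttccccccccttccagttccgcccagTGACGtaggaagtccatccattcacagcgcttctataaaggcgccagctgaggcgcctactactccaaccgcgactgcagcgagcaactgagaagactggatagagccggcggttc
Junb, chr8:84978699-84978998, minus strand: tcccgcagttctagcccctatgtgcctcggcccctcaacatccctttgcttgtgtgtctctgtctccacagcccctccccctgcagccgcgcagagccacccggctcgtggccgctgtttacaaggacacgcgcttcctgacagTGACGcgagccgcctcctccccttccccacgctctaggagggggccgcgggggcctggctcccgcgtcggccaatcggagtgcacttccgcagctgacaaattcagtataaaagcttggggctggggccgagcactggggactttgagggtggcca
Dusp1, chr17:26508423-26508722, minus strand: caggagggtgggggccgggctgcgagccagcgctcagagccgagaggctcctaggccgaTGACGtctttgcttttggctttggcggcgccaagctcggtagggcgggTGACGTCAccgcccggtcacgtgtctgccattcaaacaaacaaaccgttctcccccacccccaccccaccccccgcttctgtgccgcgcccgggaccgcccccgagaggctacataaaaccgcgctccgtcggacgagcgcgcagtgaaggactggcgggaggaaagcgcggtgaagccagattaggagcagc
Atf3, chr1:191183284-191183583, minus strand: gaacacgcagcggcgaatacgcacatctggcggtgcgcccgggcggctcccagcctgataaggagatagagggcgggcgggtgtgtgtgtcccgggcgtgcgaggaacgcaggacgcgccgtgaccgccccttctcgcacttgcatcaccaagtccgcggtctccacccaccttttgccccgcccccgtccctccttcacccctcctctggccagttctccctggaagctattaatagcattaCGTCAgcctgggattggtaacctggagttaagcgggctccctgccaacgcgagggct

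**Figure D1:**
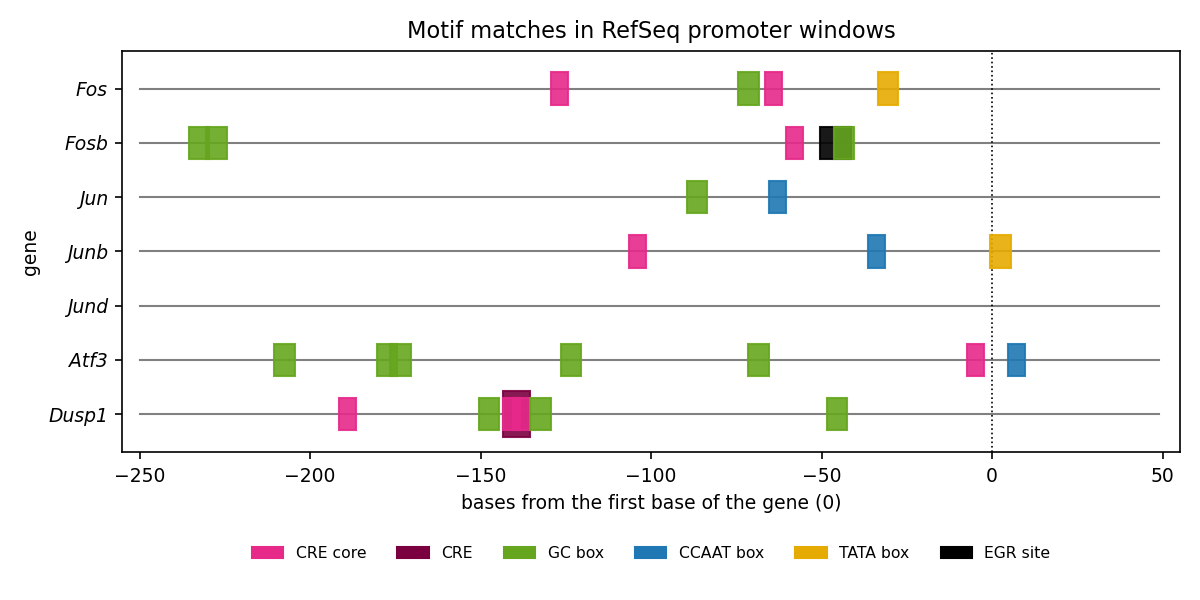
Motif matches on either strand in the RefSeq promoter windows of 7 members, by distance in bases from the first base of the gene (0); each grey line is a window and each box a match. The CRE core is in 5 of the 7 windows, and GC boxes (GGGCGG) are also in 5. The Jund window holds no match to these motifs. It ends at 70697788, before the Jund start at 70698949 in GENCODE M21, and so does not cover that start.

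With the first base of the gene as 0, the Fos window holds the core from positions −129 and −66 and a TATA box (TATAAA) from −33. In the Dusp1 window the palindrome begins at −143 and a further core at −191. The core of the Atf3 window is read on the opposite strand and begins at −7. The Junb core begins at −106 and a TATA box at 0. For Junb, base 0 is the first base in the deposited table (84978748). GENCODE M21 puts the first base further downstream, at 84978718, so these positions depend on the annotation. For Atf3 and Dusp1 GENCODE M21 puts the first base far upstream, at 191218039 and 26562128, outside the windows shown. TATA boxes were in 13.6% of all windows, CCAAT boxes in 37.4% and GC boxes in 35.7%. CCAAT boxes stood in the windows of Atf3, Jun and Junb.

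Gene structure differed among the members. In GENCODE M21 the longest coding transcript of Jun, Junb, Jund and Ier2 has 1 exon, so 4 of the 10 members were single-exon genes, against 2.01% of 10824 coding genes at 1 FPKM or more in any library. The median over those genes was 9 exons. The median gene length of the members in the deposited table was 2352 bases, against 3000 over coding genes at 1 FPKM or more; Egr1, Fosb and Jun were longer than that, at 4484, 3751 and 3189 bases. AU-rich elements in the 3′ UTR are the best known mark of short-lived mRNA. The pentamer ATTTA was found in the 3′ UTR of 9 members, Ier2 being the exception, and the longer TTATTTATT in those of Fos, with 1 copy, and Dusp1, with 2. Of the coding genes, 67.6% held the pentamer and 7.26% the longer motif.

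Most members were highest in the library from hormone-treated mice. Of the 10, 8 had their highest FPKM in TH-treated NASH, 1 (Junb) in control and 1 (Atf3) in NASH, and none was lowest in TH-treated NASH. Among the 8 are Fosb, on 21 fragments against 22 in NASH, and Jund, only 1.09-fold above NASH. How many of all genes were highest or lowest in each library was not counted, so these counts have no background. The lowest value fell in NASH for Egr1, Junb, Ier2, Dusp1 and Myc, and in control for Fos, Fosb, Jun, Jund and Atf3. Summed over the 10 genes, the level was 131, 121 and 189 FPKM in control, NASH and TH-treated NASH. Egr1 made up 4.38%, 2.02% and 13.8% of these sums. Fosb stayed below 1 FPKM everywhere, and 7 members were at 1 FPKM or more in every library.

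**Figure D2:**
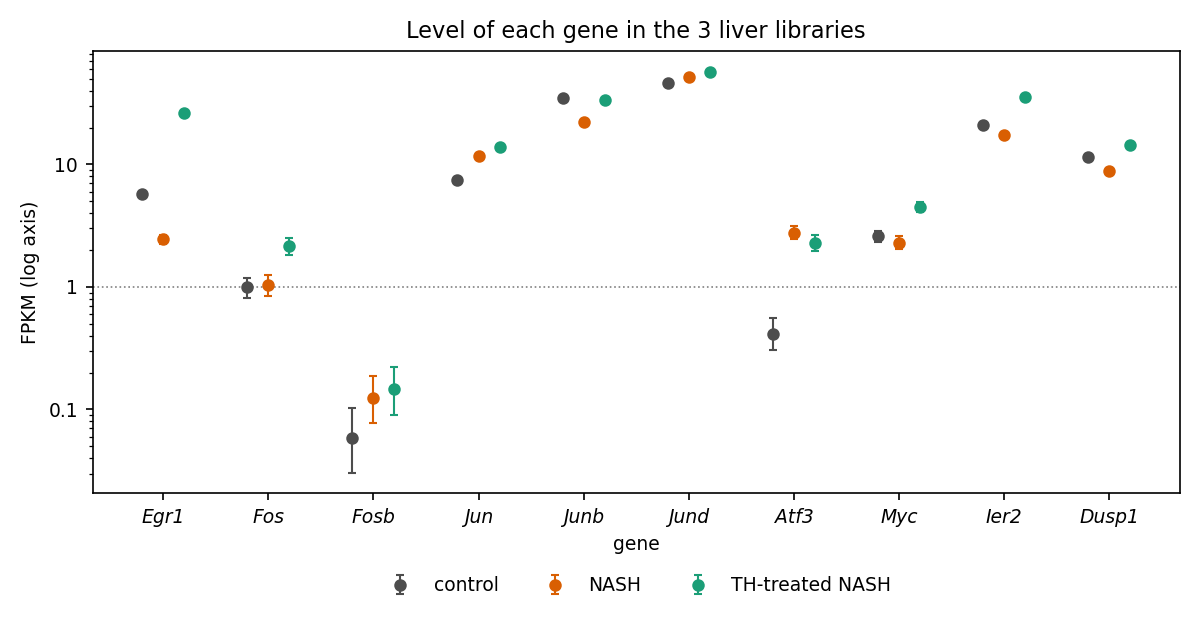
FPKM on a log axis for each gene in the 3 libraries (1 point per library), with exact 95% Poisson intervals for counting error. Egr1 stands at 26.2 FPKM in TH-treated NASH against 5.74 in control and 2.45 in NASH, whereas Jund lies between 46.5 and 56.6 in all 3.

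In each library Jund had the highest level and Fosb the lowest. The order in control was Jund, Junb, Ier2, Dusp1, Jun, Egr1, Myc, Fos, Atf3 and Fosb, and the counting intervals of neighbours did not overlap. In NASH the intervals of Atf3 and Egr1 overlapped, as did those of Egr1 and Myc. In TH-treated NASH those of Ier2 and Junb, of Dusp1 and Jun, and of Atf3 and Fos overlapped. Egr1 moved from place 6 in control to place 7 in NASH and place 4 in TH-treated NASH.

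Egr1 (ENSMUSG00000038418, chromosome 18, 34859823 to 34864984 in the deposited table) encodes a zinc finger factor that links growth factor signals to genes of growth, matrix and metabolism. It stood at 5.74, 2.45 and 26.2 FPKM in control, NASH and TH-treated NASH, on 1404, 516 and 4499 fragments. NASH was thus the low library and TH-treated NASH the high one, with no overlap of their counting intervals. The level was 2.34-fold lower (2.12 to 2.60) in NASH than in control, and 10.7-fold higher (9.77 to 11.7) in TH-treated NASH than in NASH. Of the 11734 genes that reached 1 FPKM in the second pair, 0.324% had a log2 ratio at least as high. Against control, Egr1 was 4.57-fold higher (4.30 to 4.85) in TH-treated NASH. Its relatives Egr2, Egr3 and Egr4 were below 1 FPKM in every library. The EGR corepressors Nab1 and Nab2 stood at 19.8, 19.3 and 23.7 FPKM and at 11.5, 10.2 and 7.71 FPKM in control, NASH and TH-treated NASH, all within 1.5-fold.

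Among the FOS genes, which pair with JUN proteins in AP-1, only low levels were seen. Fos (ENSMUSG00000021250, chromosome 12, 85473890 to 85477273) stood at 0.991, 1.03 and 2.14 FPKM in control, NASH and TH-treated NASH, on 114, 102 and 173 fragments. Control and NASH overlapped within counting error, with a ratio of 1.04 (0.787 to 1.37), and TH-treated NASH was 2.08-fold higher (1.62 to 2.69) than NASH. Fosb (ENSMUSG00000003545, chromosome 7, 19302721 to 19310045), a close relative of Fos, stood at 0.0586, 0.125 and 0.146 FPKM on 12, 22 and 21 fragments. Its ratio was 2.13 (1.01 to 4.72) for NASH over control and 1.17 (0.613 to 2.23) for TH-treated NASH over NASH, so that a difference between NASH and TH-treated NASH was not detectable at this depth. Fosl2, the FOS gene with the highest level in control and in NASH, stood at 1.95, 2.27 and 2.08 FPKM. The summed FOS family was 3.02, 3.50 and 4.37 FPKM, of which Fos made up 32.8%, 29.4% and 49.1%.

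The JUN genes were far more abundant and each had its own course. Jun (ENSMUSG00000052684, chromosome 4, 95049034 to 95052222), the founding AP-1 member, stood at 7.46, 11.7 and 13.8 FPKM in control, NASH and TH-treated NASH, on 1298, 1761 and 1688 fragments. It was 1.58-fold higher (1.47 to 1.69) in NASH than in control and 1.18-fold higher (1.10 to 1.26) in TH-treated NASH than in NASH. Junb (ENSMUSG00000052837, chromosome 8, 84976909 to 84978748), which often restrains JUN, took the other course between control and NASH, at 34.6, 22.2 and 33.7 FPKM in control, NASH and TH-treated NASH. It was 1.56-fold lower (1.47 to 1.65) in NASH than in control and 1.52-fold higher (1.43 to 1.61) in TH-treated NASH than in NASH. On the log2(FPKM + 1) scale that second difference was 0.58 and fell just short of a call. Against control, TH-treated NASH was at 0.975 of the Junb level (0.925 to 1.03). Jund (ENSMUSG00000071076, chromosome 8, 70697739 to 70700616), the JUN gene least dependent on a stimulus, stood at 46.5, 52.1 and 56.6 FPKM, and its steps were 1.12-fold (1.08 to 1.16) and 1.09-fold (1.05 to 1.13). After median-of-ratios and trimmed mean (TMM) scaling the first step of Jund had the opposite sign, with log2 ratios of −0.05 and −0.02 in place of 0.16.

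As a share of the summed JUN family, at 88.6, 86.0 and 104 FPKM in control, NASH and TH-treated NASH, Junb made up 39.0%, 25.8% and 32.4% and Jun 8.42%, 13.7% and 13.3%. Jund made up the remaining 52.5%, 60.5% and 54.4%. The table also lists genes on the opposite strand of Jun and Jund, and whether the counting used strand was not stated, so reads there cannot be told apart with certainty. All 543 bases of Gm11175 lie inside Jund, and it stood at 35.0, 34.3 and 47.8 FPKM. Junos shares 689 bases with Jun and stood at 1.57, 1.85 and 1.48 FPKM. No other member overlaps a listed gene.

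Atf3 (ENSMUSG00000026628, chromosome 1, 191170296 to 191183340), a stress-induced member of the ATF/CREB family that can pair with JUN proteins, stood at 0.416, 2.78 and 2.30 FPKM in control, NASH and TH-treated NASH, on 45, 259 and 175 fragments. The control library was low and the 2 diet libraries lay close together. Atf3 was 6.68-fold higher (4.85 to 9.39) in NASH than in control, and its level in TH-treated NASH was 0.829 of that in NASH, with an interval that holds 1 (0.681 to 1.01). Against control it was 5.54-fold higher (3.97 to 7.87) in TH-treated NASH. Myc (ENSMUSG00000022346, chromosome 15, 61985341 to 61990374), a driver of cell growth and ribosome production, stood at 2.58, 2.30 and 4.48 FPKM on 337, 258 and 410 fragments. Control and NASH did not differ beyond counting error, at a ratio of 0.889 (0.753 to 1.05), and TH-treated NASH was 1.95-fold higher (1.66 to 2.29) than NASH.

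Ier2 (ENSMUSG00000053560, chromosome 8, 84661331 to 84662852) stood at 21.1, 17.5 and 35.4 FPKM in control, NASH and TH-treated NASH, on 1753, 1249 and 2062 fragments. It was 1.21-fold lower (1.12 to 1.30) in NASH than in control and 2.03-fold higher (1.89 to 2.18) in TH-treated NASH than in NASH. Dusp1 (ENSMUSG00000024190, chromosome 17, 26505590 to 26508519), which dephosphorylates MAP kinases and so dampens the signals that induce this class of genes, stood at 11.6, 8.86 and 14.3 FPKM on 1464, 963 and 1270 fragments. It was 1.31-fold lower (1.21 to 1.42) in NASH than in control and 1.62-fold higher (1.49 to 1.76) in TH-treated NASH than in NASH. Both genes thus had their low value in NASH, as Egr1 did, with a far smaller span. All positions are those of the deposited table, whose genome build was not stated; all 10 overlap the GENCODE M21 gene of the same identifier and 4 share its start and end.

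NASH was set against control to see the difference between the diets. Of the 10 members, 2 were called higher (Atf3 and Jun) and 2 lower (Egr1 and Junb). Of all 11499 genes that reached 1 FPKM in this pair, 10.5% were called higher and 2.57% lower. The median log2 ratio was −0.05 over the 10 members, −0.12 over the 9 at 1 FPKM or more in any library, and 0.12 over all genes. Scaling moves that last value to −0.06 (median-of-ratios) and −0.03 (trimmed mean), and the share of higher among all called genes from 80.3% to 59.7% and 64.1%. Centring by gene length gave 66.1%. Jun lost its call under these 3 settings, while Atf3, Egr1 and Junb kept theirs.

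**Figure D3:**
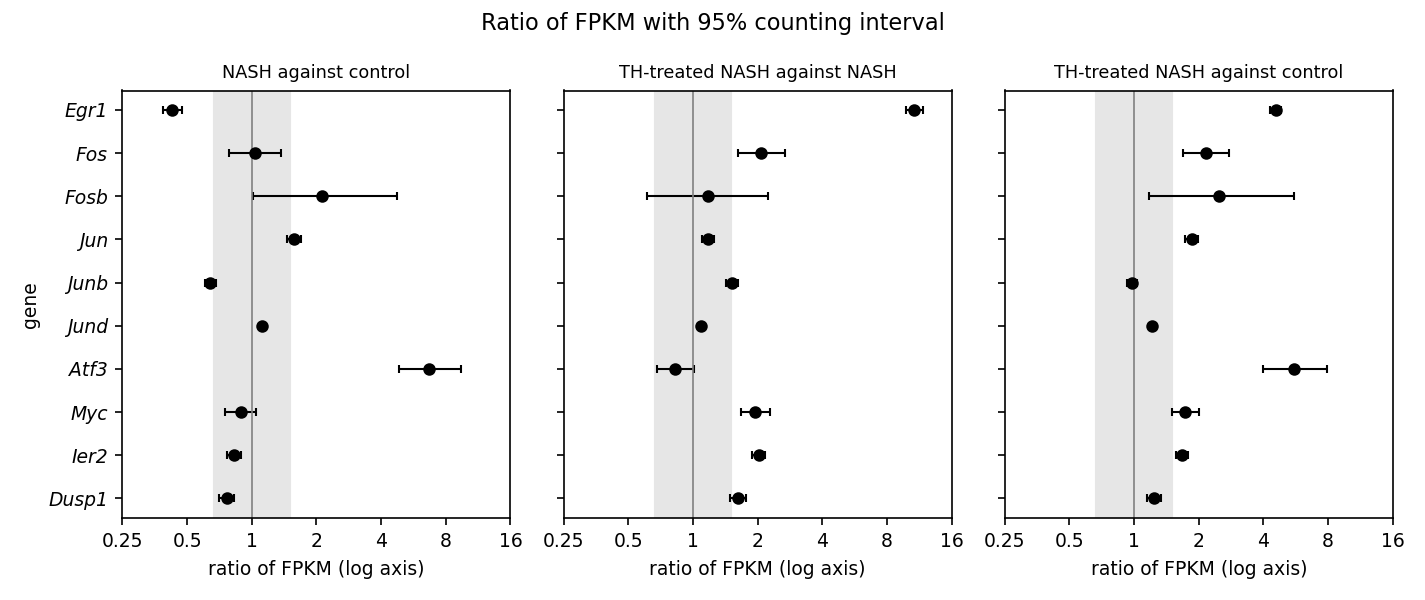
Ratio of FPKM on a log axis for each gene in the 3 comparisons, with exact 95% counting intervals; the grey band spans 1.5-fold either way on the ratio itself, so that calls on the log2(FPKM + 1) scale can differ for low genes. In TH-treated NASH against NASH, Egr1 lies at 10.7 and Atf3 is the only point below 1, at 0.829.

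TH-treated NASH was set against NASH to see the difference with thyroid hormone on the same diet. Of the 10 members, 5 were called higher (Egr1, Fos, Ier2, Myc and Dusp1) and none lower. A higher FPKM was seen in 9, in 8 of them with a counting interval above 1, and the share of all genes with a higher FPKM was not counted. Of 11734 genes, 8.49% were called higher and 9.03% lower. The median log2 ratio was 0.61 over the 10 members and −0.03 over all genes. Scaling to equal totals moved that last value to −0.14 and the share of higher among all called genes from 48.4% to 34.3%, and Dusp1 then lost its call. With median-of-ratios scaling, centring by gene length or a pseudocount of 0.1 FPKM Junb was called as well. The 2 comparisons share the NASH library.

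Markers of other cells differed between the same libraries. The 7 genes of the neutrophil and granulocyte precursor list summed to 4.76, 8.95 and 94.0 FPKM in control, NASH and TH-treated NASH, with Ly6g, a neutrophil marker, at no fragment in control and at 1 and 7 fragments in the others. The 5 of them at 1 FPKM or more were all called higher in TH-treated NASH than in NASH, among them S100a8, named after its values were seen, at 40.7 against 3.42 FPKM. The filter was 1 FPKM or more in any library. In this and the other marker lists, a gene that passed only through the library where it was high is no support for its list. The 6 erythroid genes summed to 316, 391 and 1758 FPKM; 4 globin genes were called higher and Alas2, the first enzyme of erythroid heme synthesis, lower in TH-treated NASH than in NASH. The summed level of the 8 macrophage and Kupffer cell genes was 103, 277 and 503 FPKM. All 8 were called higher in NASH than in control. In TH-treated NASH against NASH 3 were called higher and none lower, with log2 ratios from −0.32 to 1.78. The 6 stellate cell and fibroblast genes summed to 70.4, 137 and 94.9 FPKM, the 5 endothelial genes to 50.8, 57.5 and 65.8 FPKM, and the 4 cholangiocyte genes to 3.30, 4.83 and 2.29 FPKM. The 4 B cell genes summed to 2.02, 4.17 and 4.54 FPKM and the 5 T and NK cell genes to 1.63, 3.88 and 5.05 FPKM. Their part in the levels of the members was not tested.

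TH-treated NASH was also set against control, as the third pair of libraries. Of the 10 members, 6 were called higher (Egr1, Fos, Jun, Ier2, Atf3 and Myc) and none lower, where 15.8% of 11474 genes were called higher and 6.98% lower. The median log2 ratio was 0.64 over the 10 members and 0.12 over all genes. Jun was 1.85-fold higher (1.72 to 1.99), Fos 2.16-fold (1.70 to 2.76), Myc 1.73-fold (with a lower bound just under 1.5 and an upper one of 2.01) and Ier2 1.68-fold (1.57 to 1.79). Fos, Myc and Ier2 lost their calls under median-of-ratios scaling, trimmed mean scaling and centring by gene length, and the share of higher among all called genes was 50.2%, 48.8% and 50.9% in place of 69.4%. The median of all genes was −0.04 and −0.05 after the first 2 of these settings. Egr1, Atf3 and Jun kept theirs under these 3 settings.

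Other immediate early genes were called in both directions. Of 37 listed, 30 reached 1 FPKM in any library; 6 of these were called higher and 4 lower in NASH than in control, and 9 higher and 5 lower in TH-treated NASH than in NASH. The first balance turned to 3 higher and 6 lower once ratios were centred by gene length or scaled by TMM or median-of-ratios. Over all genes, 10.5% were called higher and 2.57% lower in NASH than in control. In TH-treated NASH against NASH the shares were 8.49% and 9.03%. The counts of the lists below are to be read beside these shares too. Gadd45g, a stress and growth arrest gene, stood at 9.91, 7.55 and 109 FPKM in control, NASH and TH-treated NASH, 14.4-fold higher (13.0 to 16.1) in the latter than in NASH. Its relative Gadd45a went the other way, at 7.28, 10.3 and 3.67 FPKM. The kinase gene Plk3 had its low value in NASH, as Egr1 did, at 40.6, 21.5 and 63.4 FPKM. Cyr61, which encodes a matrix protein, was highest in NASH at 3.60, 8.18 and 1.34 FPKM. The medians of this list were 0.17 and 0.20 in the 2 comparisons; the former was −0.0047 after median-of-ratios scaling and −0.02 among genes at 5 FPKM or more.

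**Figure D4:**
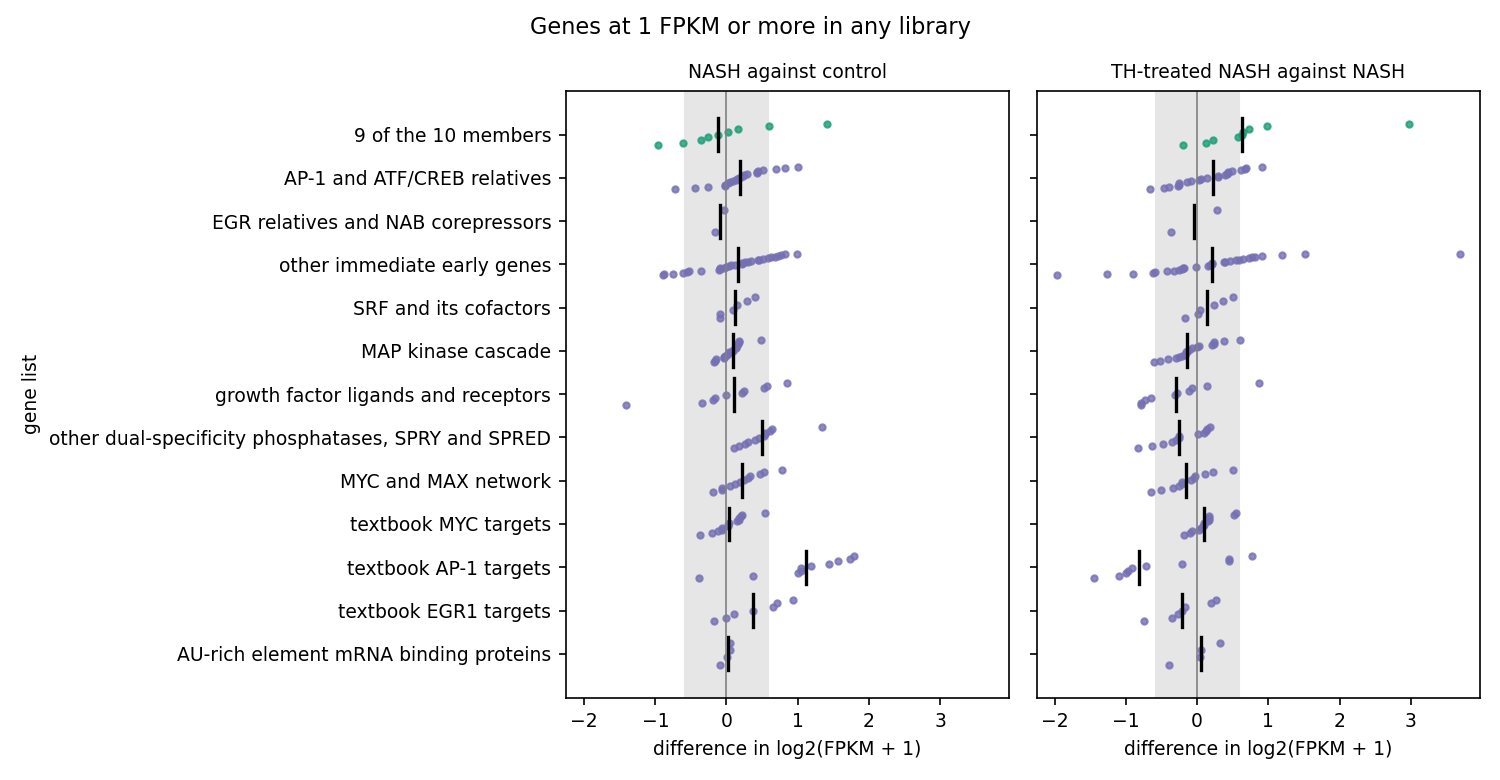
Difference in log2(FPKM + 1) for each gene at 1 FPKM or more in any library, by list, in the 2 comparisons the study names; black bars are list medians and the grey band spans 1.5-fold either way. Members at this level (9 of 10, Fosb being below) have a median of 0.63 in TH-treated NASH against NASH. Textbook AP-1 targets have a median of −0.82 there, and of 0.44 among those at 5 FPKM or more.

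Of 23 AP-1 and ATF/CREB relatives, 22 reached 1 FPKM, with 3 called higher and 1 lower in NASH than in control and 4 higher and 1 lower in TH-treated NASH than in NASH. Under the same 3 settings the first counts were 2 and 2, and with equal totals the second were 2 and 2. Batf3, a partner of JUN in immune cells, stood at 0.849, 2.72 and 4.99 FPKM in control, NASH and TH-treated NASH. It passed the filter only through the diet libraries, where it was high. Its call in NASH against control is thus no support for the list. The acute phase regulators Cebpb and Cebpd stood at 132, 145 and 273 FPKM and at 7.02, 13.2 and 20.7 FPKM. Crem, a modulator of cAMP responses, was 9.01, 5.06 and 7.49 FPKM. The list medians were 0.19 and 0.22.

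Genes for regulators upstream of the members were counted next. None of the 6 genes for SRF and its cofactors was called in either comparison, and Elk4, an SRF partner, stood at 10.8, 10.1 and 14.7 FPKM. Of 22 MAP kinase cascade genes, 19 reached 1 FPKM; none was called in NASH against control, and in TH-treated NASH against NASH Mapk12 was called higher (4.16 against 2.39 FPKM) and Map2k6 lower (1.75 against 3.17 FPKM). Growth factor ligands and receptors had 10 of 16 at 1 FPKM, with 1 higher and 1 lower in NASH than in control and 1 higher and 4 lower in TH-treated NASH than in NASH. With equal totals 3 were higher in the former, and among genes at 5 FPKM or more 1 was lower in the latter. Egfr, the EGF receptor, stood at 63.6, 23.2 and 43.3 FPKM in control, NASH and TH-treated NASH. The ligand genes Tgfa and Hgf stood at 5.35, 6.36 and 3.27 FPKM and at 1.40, 1.85 and 0.654 FPKM.

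Dusp1 has relatives among the phosphatases and inhibitors of this pathway. Of 19 DUSP, SPRY and SPRED genes, 12 reached 1 FPKM; 3 were called higher and none lower in NASH than in control, and none higher and 2 lower in TH-treated NASH than in NASH. The 3 became 1 under the same 3 settings as above and 6 with equal totals, and the 2 became 1 under centring by length and 4 with equal totals. Dusp6, the ERK phosphatase, stood at 7.46, 20.4 and 11.1 FPKM in control, NASH and TH-treated NASH, 2.73-fold higher (2.54 to 2.93) in NASH than in control. Spred2, an inhibitor of RAS signals, stood at 2.24, 3.68 and 2.01 FPKM. Dusp1 had its lowest value in NASH and Dusp6 its highest.

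Partners and textbook targets of the members were taken from lists. In the MYC and MAX network all 12 genes reached 1 FPKM, and Mycn was the only one called in either comparison, at 0.295, 1.22 and 0.420 FPKM. Mycn reached 1 FPKM in NASH alone, the library where it was high, so its calls are no support for the list, and none is left among genes at 5 FPKM or more. Max stood at 8.46, 12.6 and 10.7 FPKM. None of 14 textbook MYC targets was called in either comparison. Of 13 textbook AP-1 targets 10 reached 1 FPKM, with 8 called higher and none lower in NASH than in control (median 1.11) and 1 higher and 6 lower in TH-treated NASH than in NASH (median −0.82). Among genes at 5 FPKM or more, 3 were higher in the former and 1 higher and 1 lower in the latter. Spp1, the matrix protein osteopontin, stood at 27.0, 95.8 and 44.3 FPKM, and Timp1, a protease inhibitor, at 0.270, 2.75 and 0.917 FPKM. Timp1 reached 1 FPKM in NASH alone, so its calls, like those of Mycn, are no support for the list. The same holds for any other target that passed the filter through NASH alone. The median in the second comparison was 0.44 among the genes at 5 FPKM or more. Ccnd1, cyclin D1, was higher in each step, at 7.95, 23.3 and 40.4 FPKM.

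Of 8 textbook EGR1 targets 7 reached 1 FPKM, with 3 called higher in NASH than in control and 1 lower, Pdgfa, in TH-treated NASH than in NASH. The 3 became 1 once ratios were centred by gene length or scaled by TMM or median-of-ratios. Pdgfa, a growth factor for stellate cells, stood at 3.78, 6.84 and 3.66 FPKM in control, NASH and TH-treated NASH, and Tgfb1, a fibrogenic cytokine, at 4.41, 9.28 and 11.4 FPKM. None of 4 genes for proteins that bind AU-rich mRNA was called in either comparison. Zfp36l2 among them stood at 16.8, 16.9 and 17.6 FPKM.

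For the 3 members with the widest range over the libraries, the genes with the most similar pair of log2 ratios were sought among 6669 coding genes at 5 FPKM or more in any library. Likeness was the distance between the pairs of ratios, which rest on 3 libraries only. Nearest to Egr1 were Cyp2c40 (distance 0.12), Ces4a (0.25) and Mup11 (0.40); Cyp2c40 and Mup11 belong to families of near-identical genes, and their values are uncertain. Nearest to Atf3 were Marcks (0.02), Lum (0.09) and Evl (0.12). Nearest to Ier2 were Gnb2l1 (0.02), Ddt (0.04) and Rpl28 (0.05).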

How the data were processed

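Per the labels' protocols, poly(A) mRNA of liver was fragmented and copied with random hexamers; TopHat2 and HTSeq are named in the submitters' processing notes, with version, strand setting and genome build not given in the sources used here. FPKM per gene were deposited by the authors, in 1 column per library, with gene length and position. Multiplied by gene length, FPKM came in whole steps, and 100% of values above 0 were whole fragments within 0.01. Intervals were computed from these fragments (scipy 1.17.1, Python 3.11.15) and hold for counting error only, since PCR copies are not independent molecules. Ratios used log2(FPKM + 1). Of all genes, those at 1 FPKM or more in either library of a pair were counted; lists kept genes at 1 FPKM or more in any library. Motifs were searched in RefSeq windows and GENCODE M21 transcripts. The steps were tested on simulated data.

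The members and the 12 related and 9 marker lists were chosen with earlier results of these data known. All 179 entries of the related lists and all 52 of the marker lists were found, older symbols included. Named were all members, up to 4 genes per related list with the largest absolute ratio in either comparison the study names, and 3 genes per pattern search; not all of these are described. Alternatives were another pseudocount (0.1 or 5 FPKM), filters at 0 and 5 FPKM, equal totals, median-of-ratios and trimmed mean (TMM) scaling, centring in 20 bins of gene length, a 2-fold threshold, intervals past 1.5-fold, and coding genes only. Leaving out a library was not possible.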

Additional observations from a re-analysis of the deposited data

How the results depend on the processing

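With 1 library per group no replicate could be left out, and depth limits Fosb most, at 12 to 22 fragments. No called member ratio changed its direction under 6 changes of pseudocount, scaling or length; of 30 member ratios 4 changed sign, none of them called on the log2(FPKM + 1) scale (Fos, Fosb and Jund in NASH against control, and Fosb in TH-treated NASH against control). For NASH against control, 2 members were called higher; 1 was under TMM scaling, median-of-ratios scaling, centring by gene length, a filter of 5 FPKM, a 2-fold threshold or a counting interval past 1.5-fold, and 0 with a pseudocount of 5 FPKM. The 2 called lower became 1 with the interval and 0 with a 2-fold threshold or a pseudocount of 5 FPKM. For TH-treated NASH against NASH, the 5 called higher became 3 with the filter of 5 FPKM, which fewer members pass, 2 with a pseudocount of 5 FPKM and 1 (Egr1) at 2-fold. For TH-treated NASH against control, 6 became 3 under TMM scaling, median-of-ratios scaling, centring by gene length, the filter of 5 FPKM or a pseudocount of 5 FPKM, and 2 at 2-fold. None was called lower in these last 2 comparisons under any setting. Of the 36 list medians 13 took the opposite sign under some setting. Over all genes, the calls of NASH against control were 1208 higher and 296 lower, and 789 and 533 after median-of-ratios scaling, 367 and 159 with a pseudocount of 5 FPKM and 383 and 89 at 2-fold. Those of TH-treated NASH against NASH were 996 and 1060, and 987 and 1893 with equal totals, 513 and 459 with a pseudocount of 5 FPKM and 320 and 325 at 2-fold. Those of TH-treated NASH against control were 1817 and 801, and 1236 and 1295 after TMM scaling, 789 and 380 with a pseudocount of 5 FPKM and 639 and 278 at 2-fold. Where no construction is named, the cause was not tested.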
